A study of Mus musculus with 13 samples.

Results

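A set of 10 fibroblast marker genes was followed in whole lung: 5 that mark fibroblasts of the alveolar wall (Pdgfra, Tcf21, Npnt, Inmt and Ces1d) and 5 that mark fibroblasts of the adventitia around vessels and airways (Pi16, Dcn, Dpt, Ly6a and Cd248). They were found by symbol in the count table, which holds 32544 gene symbols. All 10 were present, and 8 of them passed the filter on low counts that left 12496 genes for testing. Tcf21 and Cd248 did not pass and are described by their counts.

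The lungs came from wild-type C57BL/6J male mice, bought at 7 weeks of age and untreated apart from the oxygen they breathed. Of the 13 samples, 7 came from mice breathing 21% oxygen (normoxia) and 6 from mice breathing 80% oxygen (hyperoxia), in both cases for 5 days. The lungs were perfused and frozen, and 500 ng of total RNA per sample was read by Quant-seq, which counts the 3′ ends of polyadenylated transcripts. No cells were sorted, so that fewer cells of a type and less RNA per cell cannot be told apart in any value given here.

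Fibroblasts make and maintain the collagen and elastin scaffold of the lung. Alveolar fibroblasts lie in the walls between air spaces, next to alveolar type 2 cells and capillaries, and support both through secreted factors and matrix. Adventitial fibroblasts lie in the loose tissue sleeves around bronchi and larger vessels and are rich in secreted proteoglycans and collagen-binding proteins. None of the 10 genes is exclusive to its cell type: Pdgfra is also made by alveolar myofibroblasts, Npnt by alveolar type 1 cells, and Ly6a by endothelial cells and lymphocytes.

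Total counts ran from 1607111 to 3387736 per normoxic library and from 2029006 to 4540288 per hyperoxic library. Levels are given as CPM, the count of a gene relative to the total of its library, after TMM scaling, which adjusts each library's total for composition, and a count of 3, taken as the floor of detection, was worth 0.656 to 1.84 CPM. One library stood apart: hyperoxia replicate 1 correlated with the other libraries at 0.721 to 0.833 over the log2 CPM of 12496 genes, while the others correlated among themselves at 0.854 to 0.967. The tested markers are therefore given with and without it, as are some of the other genes. The genes were compared with edgeR's quasi-likelihood test, with p-values adjusted by the Benjamini-Hochberg method over all 12496 genes, and a gene was called changed at an adjusted p under 0.05.

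The alveolar markers moved and the adventitial markers as a rule did not pass the test. Of the 4 alveolar markers tested, 1 rose (Pdgfra) and 3 fell (Npnt, Inmt and Ces1d), with a median log2 fold change of −1.11. Of the 4 adventitial markers tested, 0 rose and 0 fell in the fit of all 13 libraries, with a median of 0.13, and 1 (Ly6a) rose once hyperoxia replicate 1 was left out. Over all genes tested 22.6% were called, 11.8% higher and 10.8% lower in hyperoxia, and the median log2 fold change was −0.03. The levels of 10.8% of all genes did not overlap between the groups, with 5.6% higher and 5.23% lower in every hyperoxic library.

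**Figure D1:**
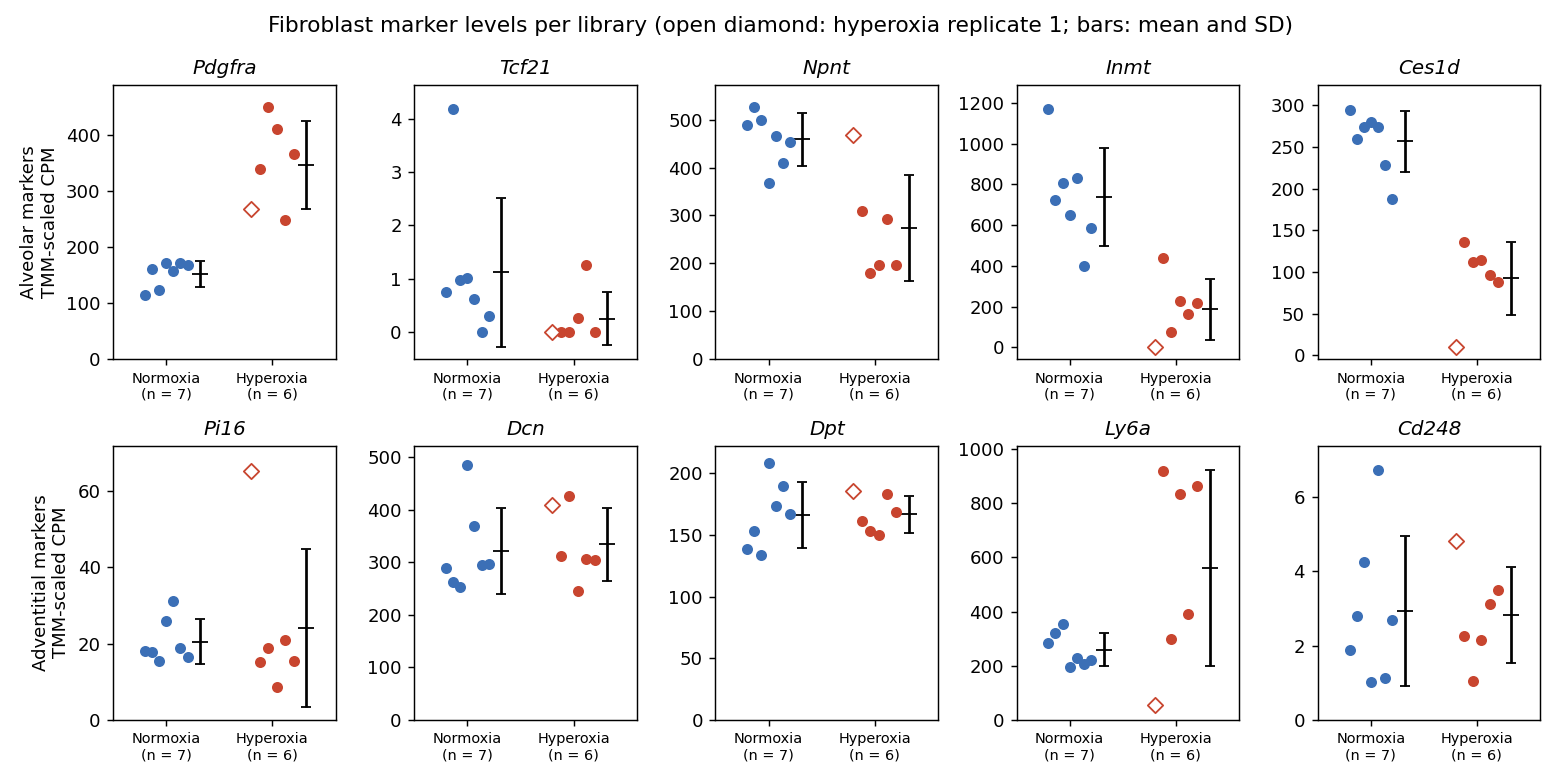
Level of each marker in each library, in TMM-scaled CPM on a linear axis, with the alveolar markers in the upper row, the adventitial markers in the lower row, and bars for the mean and SD of 7 normoxic (blue) and 6 hyperoxic (red) libraries. Pdgfra lies higher and Ces1d lower in all 6 hyperoxic libraries than in any normoxic one, and the open diamond, hyperoxia replicate 1, is the highest hyperoxic value for Npnt, Pi16, Dpt and Cd248 and the lowest for Inmt, Ces1d and Ly6a.

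Pdgfra encodes the alpha receptor for platelet-derived growth factors, a receptor tyrosine kinase that drives the growth and migration of mesenchymal cells. Its level was lowest at 115, median 160.4 and highest at 171 CPM in the 7 normoxic libraries, and lowest at 249, median 353 and highest at 450.3 CPM in the 6 hyperoxic libraries. Every hyperoxic library lay above every normoxic one. The normoxic mean was 152 ± 23.5 CPM (SD, n = 7), and the hyperoxic mean was 348 ± 78.9 CPM (SD, n = 6). Pdgfra rose by a log2 fold change of 1.19 (SE 0.16, edgeR quasi-likelihood adjusted p = 0.000107), a 2.28-fold increase, and by 1.27 without hyperoxia replicate 1. It passed the test in all 23 alternative analyses.

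Of 5 PDGF ligand and receptor genes tested, 1 rose (Pdgfra itself) and 1 fell (the ligand gene Pdgfa). Pdgfa, whose product binds the alpha receptor and comes largely from epithelium, fell from 425 ± 47.6 to 316 ± 50.8 CPM (SD, n = 7 and n = 6), a log2 fold change of −0.43 (edgeR adjusted p = 0.0329). Its call was lost in 9 of 13 fits with 1 library left out (highest edgeR adjusted p = 0.11), and kept without normoxia replicate 1 or hyperoxia replicate 1, 3 or 5. Pdgfb, Pdgfd and the beta receptor gene Pdgfrb had log2 fold changes of −0.78, −0.41 and −0.27 and did not pass the test.

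Tcf21 encodes a basic helix-loop-helix transcription factor that is needed for the development of lung mesenchyme, and lies on chromosome 10 from 22817281 to 22820174 (GRCm38, minus strand). It was barely detected: 22 counts in all in the 7 normoxic libraries and 5 in the 6 hyperoxic libraries, with 0 counts in 5 of the 13 libraries and at most 12 in any one. Its level ran from 0 through a median of 0.747 to 4.19 CPM in normoxia and from 0 through a median of 0 to 1.25 CPM in hyperoxia. The groups overlapped, and 11 of 13 libraries held 3 counts or fewer, at or below the floor. The mean log2 CPM was lower by −0.82 in hyperoxia, which did not pass a two-sided exact permutation test (p = 0.0793, where the smallest p possible over 1716 splits is 0.000583). The size of the difference depended on the prior count of 2 and was −1.61 with a prior count of 0.5 (exact permutation p = 0.0629). With the prior count of 2 it was −1.51 in the libraries lettered B to M and 0.41 in those lettered O to S. A difference in Tcf21 was not detectable at this depth. The partners with which it binds DNA, the E proteins encoded by Tcf3, Tcf4 and Tcf12, had log2 fold changes of −0.37, 0.29 and 0.34, and 0 of the 3 passed the test with all libraries in the fit, while Tcf12 passed without hyperoxia replicate 1 (0.34, edgeR adjusted p = 0.0427).

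Npnt encodes nephronectin, a matrix protein of basement membranes that is bound by the integrin made of the Itga8 and Itgb1 products. Its lowest, median and highest levels were 367, 466 and 527 CPM in normoxia, against 179, 245 and 469 CPM in hyperoxia. In 5 of 6 hyperoxic libraries it was below every normoxic library, and the sixth, hyperoxia replicate 1 at 469 CPM, lay inside the normoxic range. The mean fell from 459 ± 55.2 (SD, n = 7) to 274 ± 110.2 CPM (SD, n = 6), with a log2 fold change of −0.75 (SE 0.21, edgeR adjusted p = 0.0170). Leaving out that library gave −0.95 (edgeR adjusted p = 0.000298) and a hyperoxic mean of 235 ± 61.1 CPM (SD, n = 5). The call was lost when normoxia replicate 2 (edgeR adjusted p = 0.0535), hyperoxia replicate 3 (0.0551), replicate 4 (0.0587) or replicate 6 (0.0583) was left out, within a range of 0.000298 to 0.0587 over 23 alternatives.

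The receptor subunits of nephronectin went in opposite directions. Itga8, itself a marker of alveolar fibroblasts, fell from 101 ± 5.12 to 32.3 ± 8.20 CPM (SD, n = 7 and n = 6), a log2 fold change of −1.64 (edgeR adjusted p = 4.26e-06). Itgb1, the beta subunit shared by many integrins and made by most cells, rose by a log2 fold change of 1.09 (edgeR adjusted p = 0.000294). Both moved without overlap between the groups.

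Inmt encodes indolethylamine N-methyltransferase, an enzyme that methylates tryptamine and related amines and is abundant in lung. Its lowest, median and highest levels were 402, 722 and 1168 CPM in normoxia and 1.61, 190.4 and 438 CPM in hyperoxia. In 5 of 6 hyperoxic libraries it lay below every normoxic library, and hyperoxia replicate 2 overlapped only with normoxia replicate 6. The lowest value, in hyperoxia replicate 1, was a count of 3, which is at the floor. The mean fell from 738 ± 239 (SD, n = 7) to 188 ± 149.8 CPM (SD, n = 6), which gave a log2 fold change of −1.97 (SE 0.61, edgeR adjusted p = 0.0279). It was −1.70 without that library (edgeR adjusted p = 0.00108), with a hyperoxic mean of 225 ± 133 CPM (SD, n = 5). Leaving out normoxia replicate 1, hyperoxia replicate 3 or hyperoxia replicate 5 took the edgeR adjusted p to 0.0534, 0.0568 and 0.0532, and it ran from 0.00108 to 0.111 over 22 alternatives. Inmt gave the largest fall by fold change among the 8 markers tested, with the widest spread between libraries on the log2 scale. The related methyltransferase gene Nnmt had a log2 fold change of 0.76 and did not pass the test (edgeR adjusted p = 0.136), but rose by 0.94 without hyperoxia replicate 1 (edgeR adjusted p = 0.0326).

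Ces1d encodes a carboxylesterase that hydrolyses esters and triacylglycerol, from chromosome 8 between 93166068 and 93197838 (GRCm38, minus strand). In normoxia its levels were 188 at the lowest, 274 at the median and 295 CPM at the highest, and in hyperoxia 9.65, 104 and 136 CPM. Every hyperoxic library lay below every normoxic library, and hyperoxia replicate 1 had the lowest value of all. The mean fell from 257 ± 36.8 (SD, n = 7) to 92.6 ± 43.9 CPM (SD, n = 6), with a log2 fold change of −1.47 (SE 0.36, edgeR adjusted p = 0.00791). Without hyperoxia replicate 1 the log2 fold change was −1.22 (edgeR adjusted p = 1.48e-05), and Ces1d passed the test in all 23 alternatives. Of 6 carboxylesterase genes tested, 0 rose and 3 fell, Ces1d included, the others being Ces1f (log2 fold change −1.46) and Ces2g (−0.70). Both calls were fragile: with 1 library left out Ces1f lost its call in 8 of 13 fits and Ces2g in 10, hyperoxia replicate 1 included (highest edgeR adjusted p = 0.0891 and 0.108). Ces1f kept it without normoxia replicate 5 or 7 or hyperoxia replicate 1, 2 or 6, and Ces2g without normoxia replicate 6 or 7 or hyperoxia replicate 3. Ces1b, Ces1c and Ces1g share sequence with Ces1d, and 6.34% of the 31-base words in its transcripts also occur in other genes, so that a small part of its counts may be divided among near copies.

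Promoter sequences from RefSeq (GRCm38.p6, the same assembly as the mm10 named in the processing notes) were at hand for 6 of the 10 markers. Those of the 3 called alveolar markers found there are printed here, since Pdgfra rose while Npnt and Inmt fell. Each is read 5′ to 3′ on the strand of the gene and ends at the RefSeq start site or, for Inmt, 53 bases before it, where the annotated first exon begins. The GENCODE genes lie on chromosome 5 from 75152292 to 75198215 (plus strand, Pdgfra), chromosome 3 from 132881745 to 132950291 (minus strand, Npnt) and chromosome 6 from 55170626 to 55175043 (minus strand, Inmt). Capitals mark the GC box GGGCGG in Npnt and the TATA box TATAAA in Inmt, on either strand, and the Pdgfra window holds neither.
Pdgfra, chr5:75152001-75152250, plus strand: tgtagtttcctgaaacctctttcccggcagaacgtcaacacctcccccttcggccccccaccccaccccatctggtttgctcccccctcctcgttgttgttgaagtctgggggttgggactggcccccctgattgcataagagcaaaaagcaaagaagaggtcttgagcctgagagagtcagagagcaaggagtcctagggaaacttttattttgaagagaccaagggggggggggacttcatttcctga
Npnt, chr3:132950292-132950541, minus strand: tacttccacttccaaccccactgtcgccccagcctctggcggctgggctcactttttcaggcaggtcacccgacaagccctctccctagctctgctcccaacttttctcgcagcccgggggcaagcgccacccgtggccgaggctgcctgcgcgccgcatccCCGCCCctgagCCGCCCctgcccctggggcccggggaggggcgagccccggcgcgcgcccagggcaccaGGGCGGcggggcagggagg
Inmt, chr6:55175044-55175240, minus strand: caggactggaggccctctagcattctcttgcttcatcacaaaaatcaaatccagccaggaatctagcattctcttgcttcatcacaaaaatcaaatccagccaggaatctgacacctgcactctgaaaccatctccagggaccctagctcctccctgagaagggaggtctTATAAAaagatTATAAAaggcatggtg

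The printed Npnt window had a GC content of 74.0% and 3 GC boxes, starting 88, 77 and 19 bases before the RefSeq start. RefSeq gives Npnt a second start site, whose window (GC 69.6%) held 0 GC boxes, with 92 of its bases in annotated exons. Of all 32851 RefSeq promoter windows of 250 bases, 32.7% held at least 1 GC box and 8.47% held 3 or more. The Inmt window held 2 TATA boxes in an AT-richer sequence (GC 45.7%), while 9.05% of windows cut to the same 197 bases held at least 1 and 1.45% held 2 or more. The E-box CAGCTG, a form that basic helix-loop-helix factors can bind, occurred once before Dpt and once in the exon bases left out before the RefSeq start of Inmt, against 13% of all windows. The antioxidant element core TGACNNNGC, found in 10.2% of all windows, occurred in none of the 7 windows of these markers. The promoters of Npnt and Inmt, which both fell, thus shared none of the 4 motifs searched on both strands, and a match is a run of letters and not a measured binding site.

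Among the adventitial markers, Pi16 encodes a secreted peptidase inhibitor of the CAP family and marks a universal type of fibroblast found in the adventitia of many organs. It lies on chromosome 17 from 29317680 to 29330593 (GRCm38, plus strand). Of the 31-base words in its transcripts, 7.4% also occur in other genes, first among them the overlapping antisense gene AC162182.1. In the last 300 bases the share was 19.4%. Its lowest, median and highest levels were 15.4, 17.9 and 31.2 CPM in normoxia and 8.62, 17.1 and 65.4 CPM in hyperoxia. The groups overlapped, with the highest level in hyperoxia replicate 1. The means were 20.5 ± 5.84 (SD, n = 7) and 24.1 ± 20.7 CPM (SD, n = 6), and the log2 fold change of 0.21 did not pass the test (edgeR adjusted p = 0.739, 95% interval −0.53 to 0.94). Without hyperoxia replicate 1 the sign turned, to −0.35 (edgeR adjusted p = 0.296), within a range of adjusted p from 0.296 to 0.911 over 23 alternatives. Of 6 CAP family genes tested, Pi16 included, 1 rose and 0 fell. The one that rose was Crispld2, a secreted protein of lung mesenchyme, with a log2 fold change of 1.07 (edgeR adjusted p = 0.00114).

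Dcn encodes decorin, a small leucine-rich proteoglycan that binds collagen fibrils, and lies on chromosome 10 from 97479609 to 97518143 (GRCm38, plus strand). Its levels were 253, 294 and 484 CPM at the lowest, median and highest in normoxia and 245, 309 and 427 CPM in hyperoxia, and the groups overlapped almost fully. The log2 fold change was 0.06 (edgeR adjusted p = 0.859), with a 95% interval from −0.29 to 0.40, and 0.00702 without hyperoxia replicate 1. Of 7 small leucine-rich proteoglycan genes tested, Dcn included, 0 rose and 2 fell. These were Prelp, which anchors basement membrane to connective tissue, from 153 ± 27.3 to 46.7 ± 16.7 CPM (SD, n = 7 and n = 6), and Ogn (osteoglycin), from 271 ± 54.5 to 123 ± 27.6 CPM (SD, n = 7 and n = 6). Their log2 fold changes were −1.71 and −1.14, both without overlap between the groups. Bgn (biglycan) and Fmod (fibromodulin) had values of 0.51 and −0.71 and did not pass, although Bgn rose by 0.67 in the absence of hyperoxia replicate 1 (edgeR adjusted p = 0.0481).

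Dpt encodes dermatopontin, a small matrix protein that binds decorin and collagen, and lies on chromosome 1 from 164796644 to 164824266 (GRCm38, plus strand). Its levels were 134, 167 and 208 CPM at the lowest, median and highest in normoxia and 149.7, 165 and 185 CPM in hyperoxia, so that the hyperoxic range lay inside the normoxic one. The means were 166 ± 26.9 (SD, n = 7) and 167 ± 14.99 CPM (SD, n = 6). Dpt had the narrowest interval of the 8 tested markers, from −0.25 to 0.26 around a log2 fold change of 0.01 (edgeR adjusted p = 0.985), which was −0.012 without hyperoxia replicate 1.

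Ly6a encodes Sca-1, a small surface protein held by a lipid anchor and used to sort adventitial fibroblasts and stem cells, and lies on chromosome 15 from 74994877 to 74998031 (GRCm38, minus strand). Its levels were 197, 229 and 355 CPM at the lowest, median and highest in normoxia and 53.1, 612 and 919 CPM in hyperoxia. In 4 of 6 hyperoxic libraries it lay above every normoxic one, hyperoxia replicate 3 at 298 CPM was inside the normoxic range, and hyperoxia replicate 1 at 53.1 CPM was below it. The means were 259 ± 61.5 (SD, n = 7) and 560.2 ± 362 CPM (SD, n = 6), and the log2 fold change of 1.12 (SE 0.43) did not pass the test with all libraries (edgeR adjusted p = 0.0740). Without hyperoxia replicate 1, Ly6a rose by 1.37 (edgeR adjusted p = 0.000669, hyperoxic mean 662 ± 294 CPM, SD, n = 5). The adjusted p ran from 0.000669 to 0.46 over 23 alternatives, of which 3 passed.

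Ly6a has near copies in the genome. Of the 31-base words in its transcripts, 31.9% also occur in other genes, most often Ly6c1, Ly6i and Ly6c2, and 29.2% of those in the last 300 bases that Quant-seq reads. Of 6 LY6 family genes tested, Ly6a included, 1 rose and 3 fell. The gene that rose was its near copy Ly6c1, marking capillary endothelium and some leukocytes, which ran from 128 to 238 CPM in normoxia and from 24.7 to 1029 CPM in hyperoxia (log2 fold change 1.81, edgeR adjusted p = 0.0142), a call kept with each library left out but lost with limma-voom and with limma on the deposited values. Its lowest value, 24.7 CPM, was again in hyperoxia replicate 1, and the next was 439 CPM. Ly6c2, Ly6d and Ly6e fell by 1.67, 1.82 and 0.57 on the log2 scale. Ly6e lost its call in 12 of 13 fits with 1 library left out, all but the one without hyperoxia replicate 1 (highest edgeR adjusted p = 0.143). Ly6c2 lost it without normoxia replicate 1 (edgeR adjusted p = 0.0506), and Ly6d in 2 of the 8 such fits in which it could be tested, those without hyperoxia replicate 4 or 5. How reads were divided between Ly6a and its near copies was not tested.

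Cd248 encodes endosialin, a surface protein of perivascular stromal cells and pericytes, and lies on chromosome 19 from 5068078 to 5070682 (GRCm38, plus strand). It held 3 to 16 counts per library, 53 in all in normoxia and 52 in hyperoxia. Its level ran from 1.01 through a median of 2.68 to 6.74 CPM in normoxia and from 1.04 through 2.70 to 4.83 CPM in hyperoxia, and the groups overlapped. The difference in mean log2 CPM was 0.05 (two-sided exact permutation p = 0.903), and none was detectable at this depth. Its relatives, 3 C-type lectin-like genes of endothelium, all passed the test: Cd93 rose by 2.20 on the log2 scale, and Thbd (thrombomodulin) and Clec14a fell by 1.03 and 1.00.

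The 5 alveolar markers and the 5 adventitial markers were also averaged in each library on the log2 CPM scale. The alveolar mean was 6.82 ± 0.26 (SD, n = 7) in normoxia and 5.78 ± 0.81 (SD, n = 6) in hyperoxia, and the adventitial mean 5.93 ± 0.20 and 6.09 ± 0.17. Alveolar minus adventitial gave 0.89 ± 0.27 in normoxia, from 0.53 to 1.31, and −0.30 ± 0.82 in hyperoxia, from −1.91 to 0.26. All 6 hyperoxic libraries thus lay below all 7 normoxic ones, a difference of −1.19 between the group means. Without hyperoxia replicate 1, which had the lowest value, the hyperoxic mean was 0.02 ± 0.24 (SD, n = 5) and the difference −0.87. Pdgfra and Ly6a both had higher hyperoxic means. The difference computed without this pair was −1.61, and −1.08 when hyperoxia replicate 1 was left out as well.

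**Figure D2:**
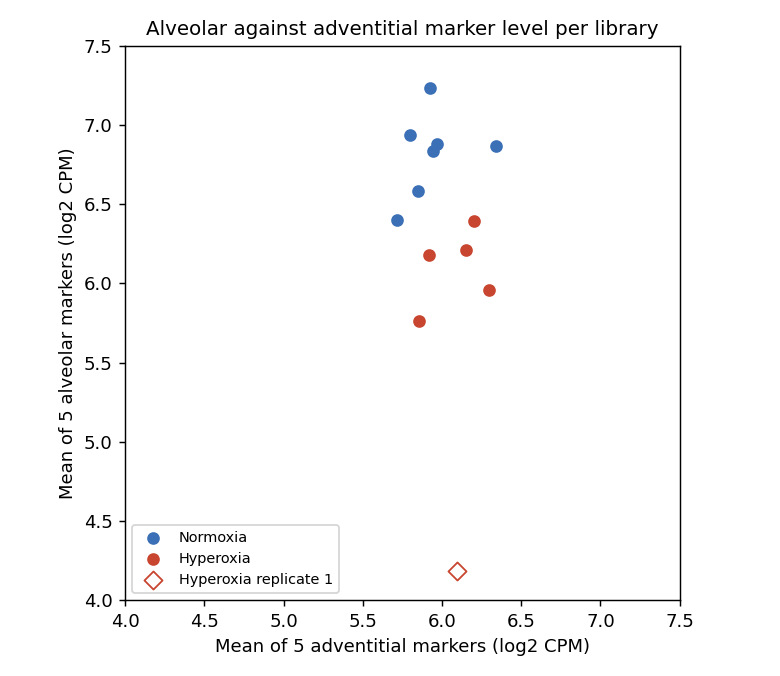
Mean log2 CPM of the 5 alveolar markers (vertical axis) against that of the 5 adventitial markers (horizontal axis), 1 point per library, with normoxia in blue, hyperoxia in red and hyperoxia replicate 1 as an open diamond. The alveolar mean is below every normoxic value in all 6 hyperoxic libraries, while the adventitial means of the hyperoxic libraries lie inside the normoxic range of 5.72 to 6.34.

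Within the alveolar group the markers did not move as a unit. Pdgfra was higher by 0.72 to 1.58 on the log2 scale in each hyperoxic library than the mean of the normoxic libraries, while Ces1d was lower in every one and Inmt was lower in every one. In hyperoxia replicate 1 the departures were largest for Inmt and Ces1d, whose log2 CPM lay at −8.28 and −4.63 from the normoxic mean, while Npnt was at 0.04 from its own. Among the adventitial markers the same library was highest for Pi16 and lowest for Ly6a.

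**Figure D3:**
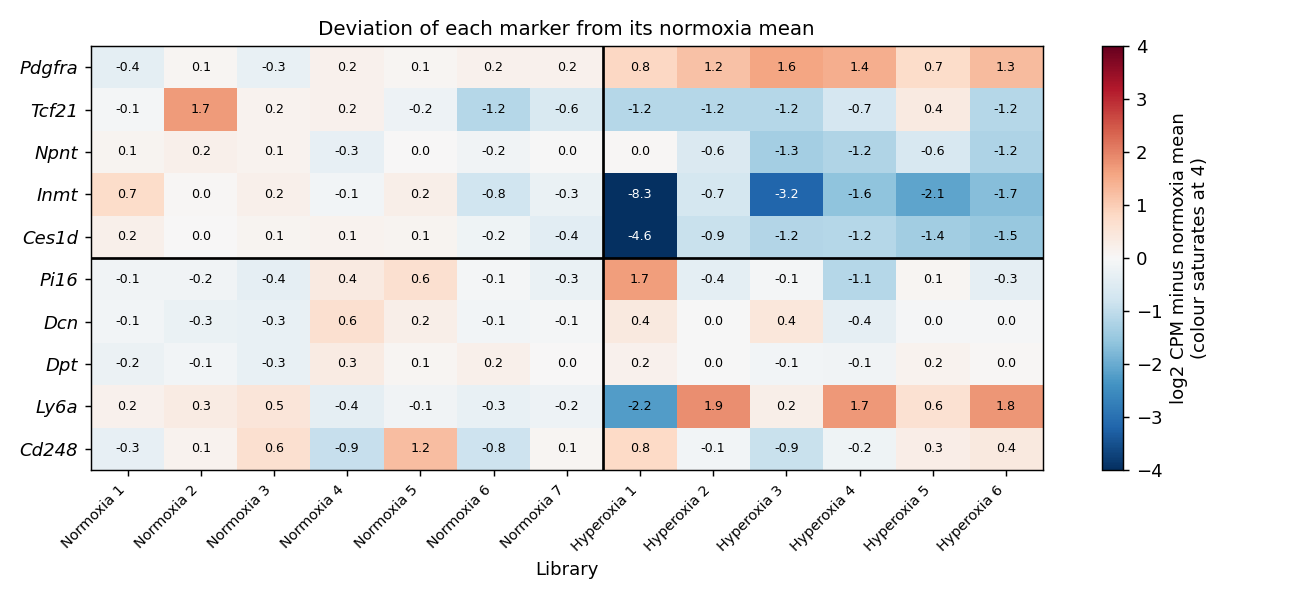
Log2 CPM of each marker in each library minus the mean of the 7 normoxic libraries, with red for higher, blue for lower and the colour saturating at 4. The row of Pdgfra is red and that of Ces1d blue across all 6 hyperoxic libraries, and the column of hyperoxia replicate 1 holds the values farthest from 0, −8.28 for Inmt and −4.63 for Ces1d.

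The names of the libraries carry letters that fall into B to M (5 normoxic and 3 hyperoxic libraries) and O to S (2 normoxic and 3 hyperoxic), which the labels do not explain. Within each letter set the difference in mean log2 CPM kept its sign for the 4 called markers. Pdgfra was higher in hyperoxia by 1.26 in B to M and 0.98 in O to S, against 1.17 over all libraries. Npnt differed by −0.66 and −0.94, Ces1d by −2.36 and −1.06, and Inmt by −4.26 and −1.27, hyperoxia replicate 1 being in B to M. That library enlarged the B to M differences of Inmt and Ces1d, at 1.61 and 9.65 CPM. Hyperoxia replicates 2 and 3 had 438 and 78.2 CPM for Inmt and 136 and 112 CPM for Ces1d. With all libraries the 6 markers not called had opposite signs in the 2 sets. Ly6a differed by −0.14 and 1.62, Pi16 by 0.34 and −0.30, and Tcf21 by −1.51 and 0.41. In B to M the signs of Ly6a and Pi16 rested on hyperoxia replicate 1, at 53.1 and 65.4 CPM. Hyperoxia replicates 2 and 3 had 919 and 298 CPM for Ly6a, against a normoxic mean of 277 CPM in that set. For Pi16 they had 15.1 and 18.8 CPM, against 21.7 CPM. The differences of Dcn were 0.24 and −0.056, those of Dpt 0.061 and −0.096 and those of Cd248 −0.22 and 0.54. The B to M sign of Dpt also rested on hyperoxia replicate 1, at a log2 CPM of 7.54, against 7.34 and 7.27 in hyperoxia replicates 2 and 3. When the fit also held a term for the letters, the log2 fold change of Inmt was −1.89 and no longer passed the test (edgeR adjusted p = 0.0563, within 0.00108 to 0.111 over 22 alternatives), while the same fit without hyperoxia replicate 1 gave −1.49 and passed (edgeR adjusted p = 0.00283).

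A wider set of genes known from each cell type was examined beside the 10 markers. Where 11.8% of all genes tested rose and 10.8% fell, 1 of 16 other alveolar fibroblast genes tested rose and 4 fell. Their median log2 fold change was −0.33. The genes that fell were Itga8 (−1.64), the sodium channel gene Scn3a (−1.64), the amino acid transporter gene Slc7a10 (−1.42) and Wnt2 (−0.87), a Wnt ligand of lung mesenchyme. Scn3a fell from 98.6 ± 23.7 to 31.6 ± 5.15 CPM (SD, n = 7 and n = 6) and Slc7a10 from 15.3 ± 4.34 to 5.65 ± 1.06 CPM, both without overlap. The chemokine gene Cxcl14 rose from 52.1 ± 10.8 to 126 ± 29.9 CPM (log2 fold change 1.28, edgeR adjusted p = 0.000135). The count of genes that fell was 6 without hyperoxia replicate 1, with Limch1 and Gyg added. The mesenchymal transcription factor genes Tbx2, Tbx4 and Tbx5 had values of −0.32, 0.27 and −0.19 and did not pass.

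Of 11 other adventitial fibroblast genes tested, 3 rose and 1 fell, with a median of −0.11. Unlike the adventitial markers, this list thus held called genes with all libraries in the fit. Cd34, a surface sialomucin shared with endothelium, rose from 49.3 ± 6.68 to 159.8 ± 30.4 CPM (SD, n = 7 and n = 6, log2 fold change 1.70). Fbn1, which encodes the microfibril protein fibrillin, rose by 1.5 and Igfbp4, a secreted binder of insulin-like growth factors, by 0.52. Dpp4, a peptidase that marks adventitial progenitors and is also made by epithelium and T cells, fell from 108 ± 15.1 to 41.0 ± 13.2 CPM (log2 fold change −1.39). All 4 moved without overlap between the groups. Leaving out hyperoxia replicate 1 took the count of genes that fell to 5, with Col14a1, Efemp1, Sema3c and Gsn beside Dpp4.

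**Figure D4:**
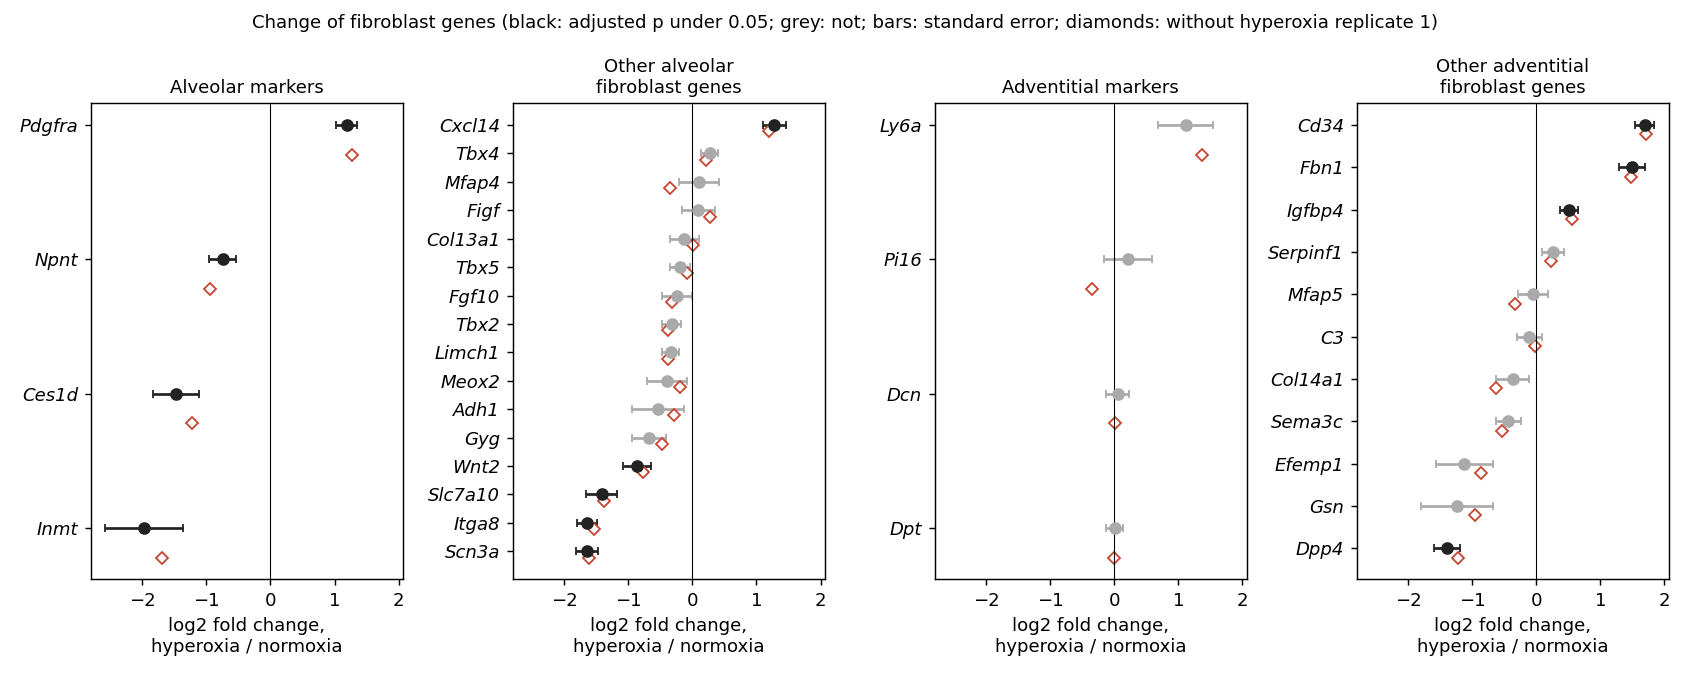
Log2 fold change, hyperoxia over normoxia, of the tested markers and of the other genes of each fibroblast type, with bars for the standard error, black points for an edgeR adjusted p under 0.05, grey for the rest, and open diamonds for the fit without hyperoxia replicate 1. Alveolar genes reach from −1.97 (Inmt) to 1.28 (Cxcl14) and adventitial genes from −1.39 (Dpp4) to 1.70 (Cd34).

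Of 13 pan-fibroblast genes tested, 3 rose and 0 fell, with a median of 0.29: Sparc (log2 fold change 1.15), which encodes a collagen-binding protein, Col3a1 (0.57) and the elastin cross-linking enzyme gene Loxl1 (0.53). The highest Sparc level was that of hyperoxia replicate 1, without which Sparc rose by 0.72 on the log2 scale. In that fit Thy1, too low to be tested with all libraries, fell by 1.49 (edgeR adjusted p = 0.0330). Of 11 genes of activated fibroblasts, 7 rose, 0 fell and 4 were not called, with a median of 1.13. The log2 fold changes of those not called lay between −0.68 and 0.28. Without hyperoxia replicate 1, Cxcl12 fell by 0.54 (edgeR adjusted p = 0.00823), and Cthrc1, too low to be tested with all libraries, fell by 2.67 on the log2 scale (edgeR adjusted p = 0.0015). Saa3 and Lcn2, counted among them, are also made by epithelium and leukocytes. Tnc, a matrix protein of injured tissue, rose from 3.80 ± 1.63 to 26.6 ± 13.8 CPM (SD, n = 7 and n = 6, log2 fold change 2.79). Timp1, an inhibitor of matrix metalloproteinases, rose by 3.73, from 3.47 ± 3.09 to 42.2 ± 27.4 CPM (SD, n = 7 and n = 6). Its lowest normoxic level, 1.11 CPM, was near the floor, and hyperoxia replicate 1 at 3.75 CPM lay inside the normoxic range. Sfrp1 (1.52) and Col8a1 (1.13) rose as well. Of 7 lipofibroblast genes, 1 rose and 2 fell: the lipid droplet coat gene Plin2 rose by 2.14 (1.73 without hyperoxia replicate 1), and the fatty acid carrier genes Fabp5 and Cd36 fell by 0.97 and 0.62. Cd36 lost its call without normoxia replicate 4 or 5 or hyperoxia replicate 2, 4 or 6 (highest edgeR adjusted p = 0.0667), and Loxl1 without normoxia replicate 1, 3, 4, 6 or 7 or hyperoxia replicate 4 (0.0592).

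For each of the 4 called markers, the 2 genes with the most similar profile were found by the root mean square difference of centred log2 CPM over the 13 libraries, among the 10454 tested genes whose mean log2 CPM was 3 or more. Pdgfra was nearest to Picalm (0.17) and Eif1a (0.18), and Npnt to E2f2 (0.19) and Ly6e (0.20). The genes nearest to Inmt were Sftpc (0.37), the surfactant protein C gene of alveolar type 2 cells, and Hilpda (0.50). Ces1d was nearest to Slc34a2 (0.23), the phosphate transporter gene of the same epithelial cells, and to Tmem50b (0.26). The root mean square deviation of Pdgfra, Npnt, Inmt and Ces1d from their own means was 0.64, 0.54, 2.26 and 1.26. All these distances include the shift between the groups and hyperoxia replicate 1, and no ranking was made without them. Sftpc ran from 5066 to 13578 CPM in normoxia and was 32.7 CPM in hyperoxia replicate 1, where Slc34a2 was 10.2 CPM against a normoxic low of 255 CPM.

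Markers of other cell types moved in the same libraries. Of 5 alveolar type 2 markers 4 fell and 0 rose. Their summed level was 5984 to 15130 CPM in normoxia and 217 to 3925 CPM in hyperoxia. The lowest was in hyperoxia replicate 1 and the next was 1332 CPM. Most of each normoxic sum was Sftpc, which averaged 9637 ± 2850 CPM in normoxia and 1465 ± 1010 CPM in hyperoxia (SD, n = 7 and n = 6). Of 7 alveolar type 1 markers 1 rose (Akap5, log2 fold change 1.20) and 1 fell (Rtkn2, −0.95), with sums of 2597 to 3001 and 3620 to 4678 CPM. Akap5 alone went from 1194 ± 133 to 2734 ± 359 CPM (SD, n = 7 and n = 6), and the log2 fold changes of the 5 markers not called lay between −0.11 and 0.08. Rtkn2 kept its call without normoxia replicate 3 or 5 or hyperoxia replicate 1 or 5, and lost it in the other 9 fits with 1 library left out (highest edgeR adjusted p = 0.0726). Of 9 endothelial markers 0 rose and 4 fell, with sums of 3052 to 5319 and 1270 to 4998 CPM. Ednrb, Gpihbp1, Tek and Car4 fell by 1.89, 1.53, 0.94 and 0.83 on the log2 scale. Most of each normoxic sum was Pecam1, which did not pass the test. Pecam1 averaged 2773 ± 862 CPM in normoxia and 1605 ± 1298.5 CPM in hyperoxia (SD, n = 7 and n = 6). Car4 lost its call without normoxia replicate 1, 2, 3 or 5 or hyperoxia replicate 3 or 4 (highest edgeR adjusted p = 0.0736). Of 4 leukocyte and T cell markers tested 3 fell, with sums of 199 to 378 and 93.7 to 207 CPM, and Ly6a and Dpp4 are also made by such cells. Their part in the changes of the fibroblast markers was not tested.

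Other mesenchymal cells also showed called genes in both directions. Of 10 myofibroblast and smooth muscle genes 3 rose (Des, Acta2, which also stands among the activated fibroblast genes, and Cnn1, by 0.96, 0.77 and 0.72) and 1 fell (Hhip, −1.23), with summed levels of 355 to 478 CPM in normoxia and 513 to 859 CPM in hyperoxia. Of 9 pericyte genes 1 rose (Trpc6, 1.24) and 3 fell (Rgs5, Kcnk3 and Cox4i2, by 1.95, 0.82 and 0.80), with sums of 138 to 202 and 79.6 to 192 CPM, and Pdgfrb was at 0 counts in hyperoxia replicate 1. Cox4i2 lost its call in 12 of 13 fits with 1 library left out, all but the one without normoxia replicate 6 (highest edgeR adjusted p = 0.108), and Kcnk3 lost it without normoxia replicate 2, 3 or 4 or hyperoxia replicate 5 (0.0565). With 1 library left out, 0 to 2 pericyte genes fell, and Rgs5 could be tested in 7 of the 13 fits. Cnn1 lost its call without normoxia replicate 1, 2, 3 or 6 or hyperoxia replicate 1, 3 or 5 (highest edgeR adjusted p = 0.0743). Of 6 mesothelial genes 0 rose and 3 fell (Rspo1, Lrrn4 and Upk1b), with sums of 126 to 231 and 65.0 to 136 CPM. In the fit without hyperoxia replicate 1, Upk3b fell by 0.95 (edgeR adjusted p = 0.0121), and 5 endothelial genes fell while 1 rose. The part of all these genes in the levels of the 10 markers was not tested.

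**Figure D5:**
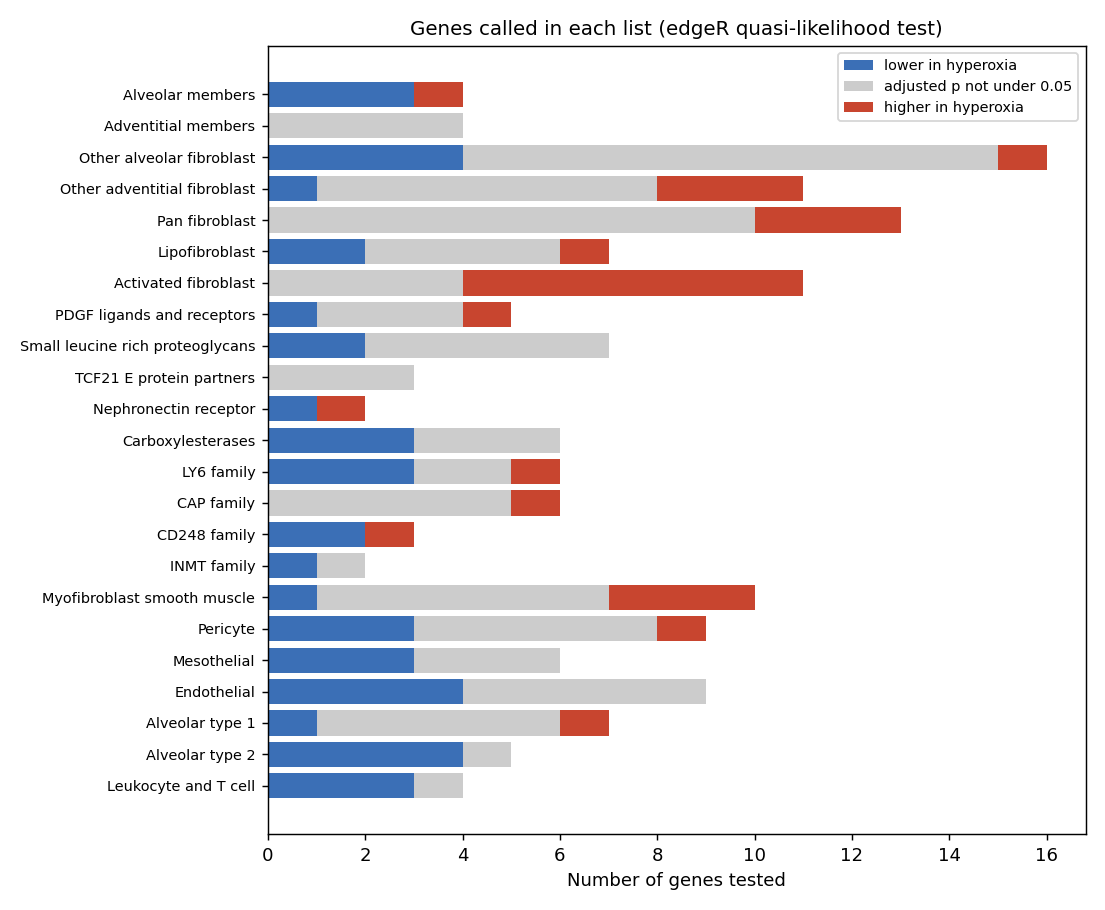
Number of tested genes in each list that were lower in hyperoxia (blue), not past an edgeR adjusted p of 0.05 (grey) or higher in hyperoxia (red), for the 2 marker groups and 21 further lists. The alveolar markers are 3 lower and 1 higher, the adventitial markers are all grey, and the list of activated fibroblast genes holds 7 higher, 4 grey and 0 lower.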

How the data were processed

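Lung RNA of 7 normoxic and 6 hyperoxic samples was read in 13 Quant-seq libraries, which were grouped by their titles. The authors quantified the reads with kallisto (mm10 in the processing notes) and deposited whole-number counts per gene symbol, with no filter. They also deposited log10 values, which recomputation from the counts gave as log10 of CPM plus 1 to within 4.4e-16. No column was left unmapped (0 columns), and 0 rows lacked a name. How strand was used in counting is not given in the sources used here.

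Counts were compared with edgeR 4.0.16 (R 4.3.3, functions glmQLFit and glmQLFTest). TMM scaling and filterByExpr (minimum count 10) came first, with Benjamini-Hochberg adjustment over 12496 genes. Total counts of 1607111 to 4540288 per library set the precision. Log2 CPM values used a prior count of 2, standard errors came from the fold change and the F statistic, and 95% intervals used 1.96 standard errors. Counts carry no molecular identifiers, so floors cover counting error only. Genes under the filter were compared by a two-sided exact permutation test of mean log2 CPM. The edgeR test was checked on simulated counts.

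The 10 members, the 24 gene lists and the tests were chosen with earlier results of these data known. The genes named are all members, up to 4 further genes with the smallest adjusted p in each list, near copies of members, and the 2 genes of most similar profile to each called member. The result of 1 list is not reported here. Wnt2, Limch1, Gyg, Tbx2, Tbx4, Tbx5, Col14a1, Efemp1, Sema3c, Gsn, Saa3, Lcn2, Cxcl12, Cthrc1, Thy1 and Pecam1 were added after their values were seen.

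Libraries of one group differed by more than sampling noise in all 36 pairs (chi-square per gene at least 3.90). The labels do not tie each sample to a separate mouse, so that p-values measure only the spread between these samples. Coordinates are from the GENCODE annotation of GRCm38, matched by symbol, and promoters from RefSeq (GRCm38.p6). Alternatives were DESeq2 1.42.0, limma-voom, limma 3.58.1 on the deposited log10 values after their change to log2, other scalings and filters, a block for the replicate number, a term for the letter set, and each library left out in turn. A fit with the letter set as a term and hyperoxia replicate 1 left out, the averages over tested members only, and those without Pdgfra and Ly6a were chosen after seeing the data.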

Additional observations from a re-analysis of the deposited data

Results flagged for a closer look

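For each of the 10 markers and for the alveolar minus adventitial mean, the highest and lowest library of each group were compared with their neighbours, in 22 groups of libraries in all. In 4 of them the gap to the nearest library, as a share of the group's whole range, was above Dixon's 95% critical value. Normally distributed values exceed it by chance in about 1 group in 20. That rate need not hold here, since Tcf21 rests on few counts and the mean is built from the markers themselves.

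Pi16 was 65.4 CPM in hyperoxia replicate 1, with the next hyperoxic library at 20.9 CPM. The alveolar minus adventitial mean was −1.91 in the same library, with the next at −0.34. Tcf21 was 4.19 CPM in normoxia replicate 2, against 1.01 CPM in the next normoxic library, and 1.25 CPM in hyperoxia replicate 5, against 0.269 CPM in the next hyperoxic library. The Tcf21 values rest on at most 12 counts.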

How the results depend on the processing

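Pdgfra and Ces1d passed the test in all 23 alternatives, with log2 fold changes of 1.09 to 1.28 and −1.86 to −1.10. Inmt lost its call when the letter set was a term (−1.89), and ran from −2.40 to −1.70 with each library left out, losing its call in 3 of 13 cases. It was −2.84 with limma-voom, −2.96 with limma on the deposited values and −1.49 with the letter set and without hyperoxia replicate 1, and passed in these 3. It has no value with at least 10 counts in every library. Npnt ran from −0.95 to −0.61 with each library left out and lost its call in 4. Ly6a passed with DESeq2 (1.12), without hyperoxia replicate 1 (1.37, in a range of 0.93 to 1.37 with each library left out) and, in the absence of that library, with a term for the letter set (1.41). It was 0.68 with limma-voom, 0.59 with limma on the deposited values and 0.76 with the replicate block, and did not pass. Pi16, Dcn, Dpt and Cd248, which did not pass, changed sign in some settings. Pi16 was −0.12 with limma-voom, −0.10 with limma on the deposited values, −0.27 with the letter set and without hyperoxia replicate 1, and −0.35 to 0.43 with each library left out. Dcn was −0.011 with limma on the deposited values, −0.028 with library size alone and −0.020 with at least 10 counts in every library. Dpt was −0.057, −0.071 and −0.060 in the same settings, −0.0089 with the letter set, −0.045 with the letter set and without hyperoxia replicate 1, and −0.017 to 0.094 with each library left out. Cd248 differed by −0.0078 with library size alone. Tcf21 differed by −1.61 in mean log2 CPM with a prior count of 0.5 and did not pass the permutation test. Its log2 fold change in the edgeR fit with no filter, another measure, was −1.88 and did not pass (edgeR adjusted p = 0.225). The cause of these changes was not tested.

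Of the alveolar markers 1 to 3 fell with each library left out (1 without hyperoxia replicate 3), and of the adventitial markers 0 to 1 rose (1 without hyperoxia replicate 1, and 1 with DESeq2). Of the other adventitial genes 2 fell with DESeq2, 2 with at least 10 counts in every library, and 1 to 5 with each library left out. Of all called genes 52.3% were higher, against 42.7% when only library size was scaled and 38.8% with limma on the deposited values. The latter moved the all-gene median from −0.03 to −0.16 on the log2 scale. There, with limma-voom and with the replicate block, Ly6c1 did not pass. Calls of Pdgfa, Ces1f, Ces2g, Ly6e, Cox4i2, Cnn1 and Rtkn2 were each lost in 7 to 12 of 13 fits with 1 library left out.

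The replicate numbers did not pair the samples. Deviations of same-numbered libraries correlated at −0.33 to 0.27, and only 1 of 6 correlated best with its own number. The fit with the number as a replicate block also lacked normoxia replicate 7, which shares its number with no hyperoxic library, and tested 12358 genes. In it, 703 genes rose and 588 fell, the log2 fold change of Inmt was −2.37 and did not pass (edgeR adjusted p = 0.111), and that of Pi16 was −0.089. Without that library and with no block, 1277 rose and 1120 fell. Depth limits Tcf21 and Cd248, where no more than 12 and 16 counts were found in any library.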
